A study of Mus musculus with 26 samples.

Results

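The Prame-like genes are a family of leucine-rich repeat genes, a few of which mouse embryonic stem cells (ESCs) express. They were followed here in poly(A) RNA-seq of R1 ESCs brought towards a two-cell-like, totipotent-like state in several ways. Every gene of the count table whose name starts with Pramef or Pramel was taken, which gave 14 of 55291 genes. Of these, 12 had at least 10 counts summed over all libraries. Pramel4 and Pramel had fewer and are not described. Of the 12 genes, 9 passed the filter on low counts and were tested for differences, and Pramef20, Pramef12os and Pramel3 were not. A gene that is high in a few groups passes the filter through those groups, so the 9 tested genes do not stand for all 12.

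The series holds 26 libraries in 13 groups of 2 replicates, all from R1 cells cultured with LIF on gelatin. Untreated ESC and DMSO-treated ESC (DMSO) were not induced. The induced wild-type groups were RA (retinoic acid, 0.53 µM for 48 h), PlaB (the splicing inhibitor pladienolide B, 4 nM for 4 days), and Zscan4 OE and Dux OE, in which doxycycline at 4 µg/mL for 24 h switched on the transgene. Dux R70A OE cells carried instead a mutant of Dux that the study uses as deficient in phase separation. No doxycycline is given for ESC, so in comparisons with ESC the transgene and doxycycline cannot be told apart. A super-enhancer at the Tdpoz genes was deleted in SE KO RA, SE KO PlaB and SE KO Dux OE, and Dux was knocked down by shRNA in the groups Dux KD Zscan4 OE, Dux KD RA and Dux KD PlaB. No deleted or knocked-down group without induction is among those analysed here. The shRNAs were taken by the study from earlier work, and the number of deleted clones is not given in the sources used here. The study calls the replicates of RA, SE KO RA, Dux OE and SE KO Dux OE biological replicates. For the other groups the sources used here do not say whether replicates were separate cultures, and the p-values may then measure technical spread.

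Some labels disagree with each other. The library SE KO RA replicate 1 is named as deleted, but its genotype entry is WT, and results that rest on it are given with and without it. For both Dux KD Zscan4 OE libraries the treatment entry is "no" and no time is given. Library totals ranged from 14401452 to 39402840 counts, with a median of 18276934. Levels are in CPM (counts scaled to a common library total) after TMM scaling, and in RPKM, which also divides by gene length, where genes are compared with each other. A floor of 3 counts in a library, used below as the limit of detection, lay between 0.0796 and 0.226 CPM. It covers counting error only, as do all intervals. A fold given as "at least" sets the observed mean of the higher group over this floor, without the counting error of that mean. The 9 ESC markers were above this floor in every group, and the two-cell-like markers summed to 25.5 to 27.6 CPM in ESC and 4064 to 4199 CPM in Dux OE. Duxf3, the Dux gene of the table, was at 9.25 and 8.21 CPM in PlaB and had 1 and 0 counts in Dux KD PlaB. In RA it was at 2.16 and 2.75 CPM, and in Dux KD RA at 0.919 and 0.354 CPM. It was at 4.01 and 3.24 CPM in Dux OE, with no counts in either Dux R70A OE library, so the Duxf3 counts give no check of either transgene.

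PRAME proteins fold into leucine-rich repeats, and several serve as substrate receptors of CUL2 ubiquitin ligases. The family has expanded in the mouse, with copies in a cluster on chromosome 4, and its members are known mainly from germ cells and early embryos. PRAMEL7 directs UHRF1, a cofactor of DNA methylation, to degradation in the inner cell mass, and Pramel6 and Pramel7 help to maintain ESCs downstream of LIF and STAT3. Pramef12 is needed by spermatogonial stem cells, Pramel1 is expressed in testicular germ cells, and human PRAME is known as a repressor of retinoic acid receptor signalling. Dux is a homeobox factor that switches on genes of zygotic genome activation, and Zscan4 is among the genes that mark that stage.

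Of the 12 genes, 9 lie on chromosome 4 (mm10, positions of the table). The first is Pramel1 (chr4:143394428-143400160, plus strand), followed by Pramef8 (chr4:143412426-143421091, plus strand). Pramef6 (chr4:143894237-143900380), Pramef25 (chr4:143948580-143951016), Pramef17 (chr4:143991119-143994369) and Pramel5 (chr4:144270633-144280488) come next, all on the minus strand. The last are Pramef20 (chr4:144372760-144377933) and Pramef12 (chr4:144391674-144408464), both on the minus strand, and Pramef12os (chr4:144404868-144406301) lies on the plus strand within Pramef12, with no exon in common. Pramel7 (chr2:87489087-87497093, minus strand) and Pramel6 (chr2:87506565-87510872, plus strand) are neighbours on chromosome 2, and Pramel3 (chrX:135302307-135312652, plus strand) is on chromosome X. RefSeq now names Pramef8, Pramef6, Pramef25, Pramef17, Pramef20 and Pramef12 as Pramel12, Pramel11, Pramel16, Pramel14, Pramel15 and Pramel13.

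The copies are alike to different degrees, which bears on how reads are assigned. Coding sequences were 86.2% identical between Pramef6 and Pramel5, 80.6% between Pramef17 and Pramel7 and 74.2% between Pramef25 and Pramef8. The lowest identity, 42.8%, was that of Pramel3 with Pramel1 and with Pramef20. All stretches of 50 bases of a transcript of each gene were then looked up in the transcripts of all other genes. None was shared for Pramel6, Pramel1, Pramef8 and Pramef12, and 0.4% for Pramel7. The share was 73.5% for Pramef17, all of it with Gm13128. It was 63.5% for Pramef25, 35.2% for Pramef6, 27.1% for Pramel5 and 81.8% for Pramel3, each with several other copies. How reads that map to more than 1 place were counted is not given in the sources used here, so the values of Pramef17, Pramef25, Pramef6, Pramel5 and Pramel3 are uncertain as values of single copies.

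The sequences before 4 genes are shown because these genes differ between the inductions, and because a pair of them resembles each other across chromosomes. Each is the 250 bases before the RefSeq start (GRCm38.p6), 5′ to 3′ on the minus strand. In Pramef17 (chr4:143994370-143994619) and Pramel7 (chr2:87492419-87492668) capitals mark runs of at least 10 bases that are identical in the alignment of both. In Pramef6 (chr4:143900381-143900630) and Pramef25 (chr4:143951017-143951266) capitals mark TATAA on either strand.
Pramef17: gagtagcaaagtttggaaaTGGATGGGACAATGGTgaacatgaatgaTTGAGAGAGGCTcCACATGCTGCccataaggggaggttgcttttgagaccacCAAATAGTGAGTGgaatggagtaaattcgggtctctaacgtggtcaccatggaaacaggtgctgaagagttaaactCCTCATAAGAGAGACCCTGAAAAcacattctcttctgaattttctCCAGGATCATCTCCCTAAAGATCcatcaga
Pramel7: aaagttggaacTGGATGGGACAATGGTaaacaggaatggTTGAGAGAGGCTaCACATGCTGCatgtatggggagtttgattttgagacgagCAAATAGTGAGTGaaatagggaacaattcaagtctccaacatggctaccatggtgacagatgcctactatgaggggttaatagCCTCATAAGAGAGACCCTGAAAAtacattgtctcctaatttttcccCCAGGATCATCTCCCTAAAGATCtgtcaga
Pramef6: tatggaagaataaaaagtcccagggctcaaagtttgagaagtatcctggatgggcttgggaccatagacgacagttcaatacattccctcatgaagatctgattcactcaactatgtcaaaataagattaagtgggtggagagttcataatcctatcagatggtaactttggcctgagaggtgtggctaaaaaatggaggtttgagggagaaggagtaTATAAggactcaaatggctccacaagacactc
Pramef25: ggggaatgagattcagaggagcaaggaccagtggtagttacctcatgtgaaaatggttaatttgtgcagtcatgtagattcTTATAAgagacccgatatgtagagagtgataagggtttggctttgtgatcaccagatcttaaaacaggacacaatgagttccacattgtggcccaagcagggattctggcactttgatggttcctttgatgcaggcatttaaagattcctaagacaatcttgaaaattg
The Pramef17 and Pramel7 windows were 83.9% identical over 242 aligned bases. The Pramef17 window was 98.0% identical to that of its near copy Gm13128 over 249 bases, and the Pramef6 window 88.2% identical to that of Gm13078 over 246 bases. The RefSeq start of Pramel7 lies 4675 bases inside the gene as the table gives it. Windows were found for 10 of the 12 genes. Of these, 4 held TATAA (Pramef6, Pramef25, Pramel5 and Pramel3), as did 22.8% of all 32851 RefSeq windows, and 4 held CCAAT, as did 33.8%, with both strands searched. GATTNAATC, letters found in the known Dux site, was in 0 of the 10 windows and in 0.247% of all. This says only that these letters are not in these windows.

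In untreated ESC the family consisted mostly of Pramef12, at a mean of 12.6 RPKM. Pramef8 followed at 2.28 RPKM and Pramel1 at 0.832 RPKM, and these 3 genes were above the floor in all 26 libraries. The other tested genes were near or under the floor in ESC, with Pramef25 at 0.232 RPKM. The summed level of the 12 genes was 16.5 RPKM in ESC and 18.4 RPKM in DMSO, 76.98 RPKM in RA, 70.1 RPKM in PlaB, 26.1 RPKM in Zscan4 OE and 105 RPKM in Dux OE. The gene that made up most of the sum differed between the inductions. Pramef12 made up 75.9% of the summed RPKM in ESC and 69.97% in RA. Pramef25 made up 56.0% in PlaB and 70.8% in Dux OE. In Dux R70A OE the sum was 18.2 RPKM and Pramef12 again made up most of it, 63.5%.

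**Figure D1:**
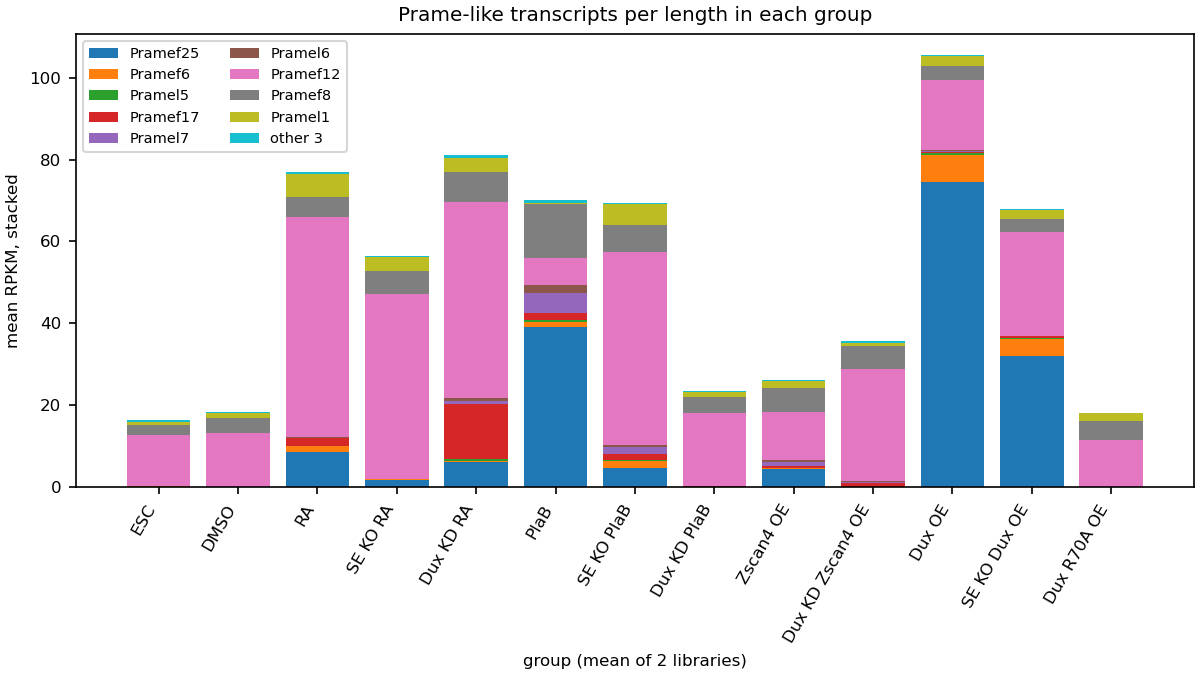
Stacked bars of the mean RPKM (2 libraries a group) of the 12 Prame-like genes in each of the 13 groups, with the 3 untested genes as 1 colour. The bar is 16.5 RPKM high in ESC and 105 RPKM in Dux OE, where Pramef25 makes up 70.8%.

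**Figure D2:**
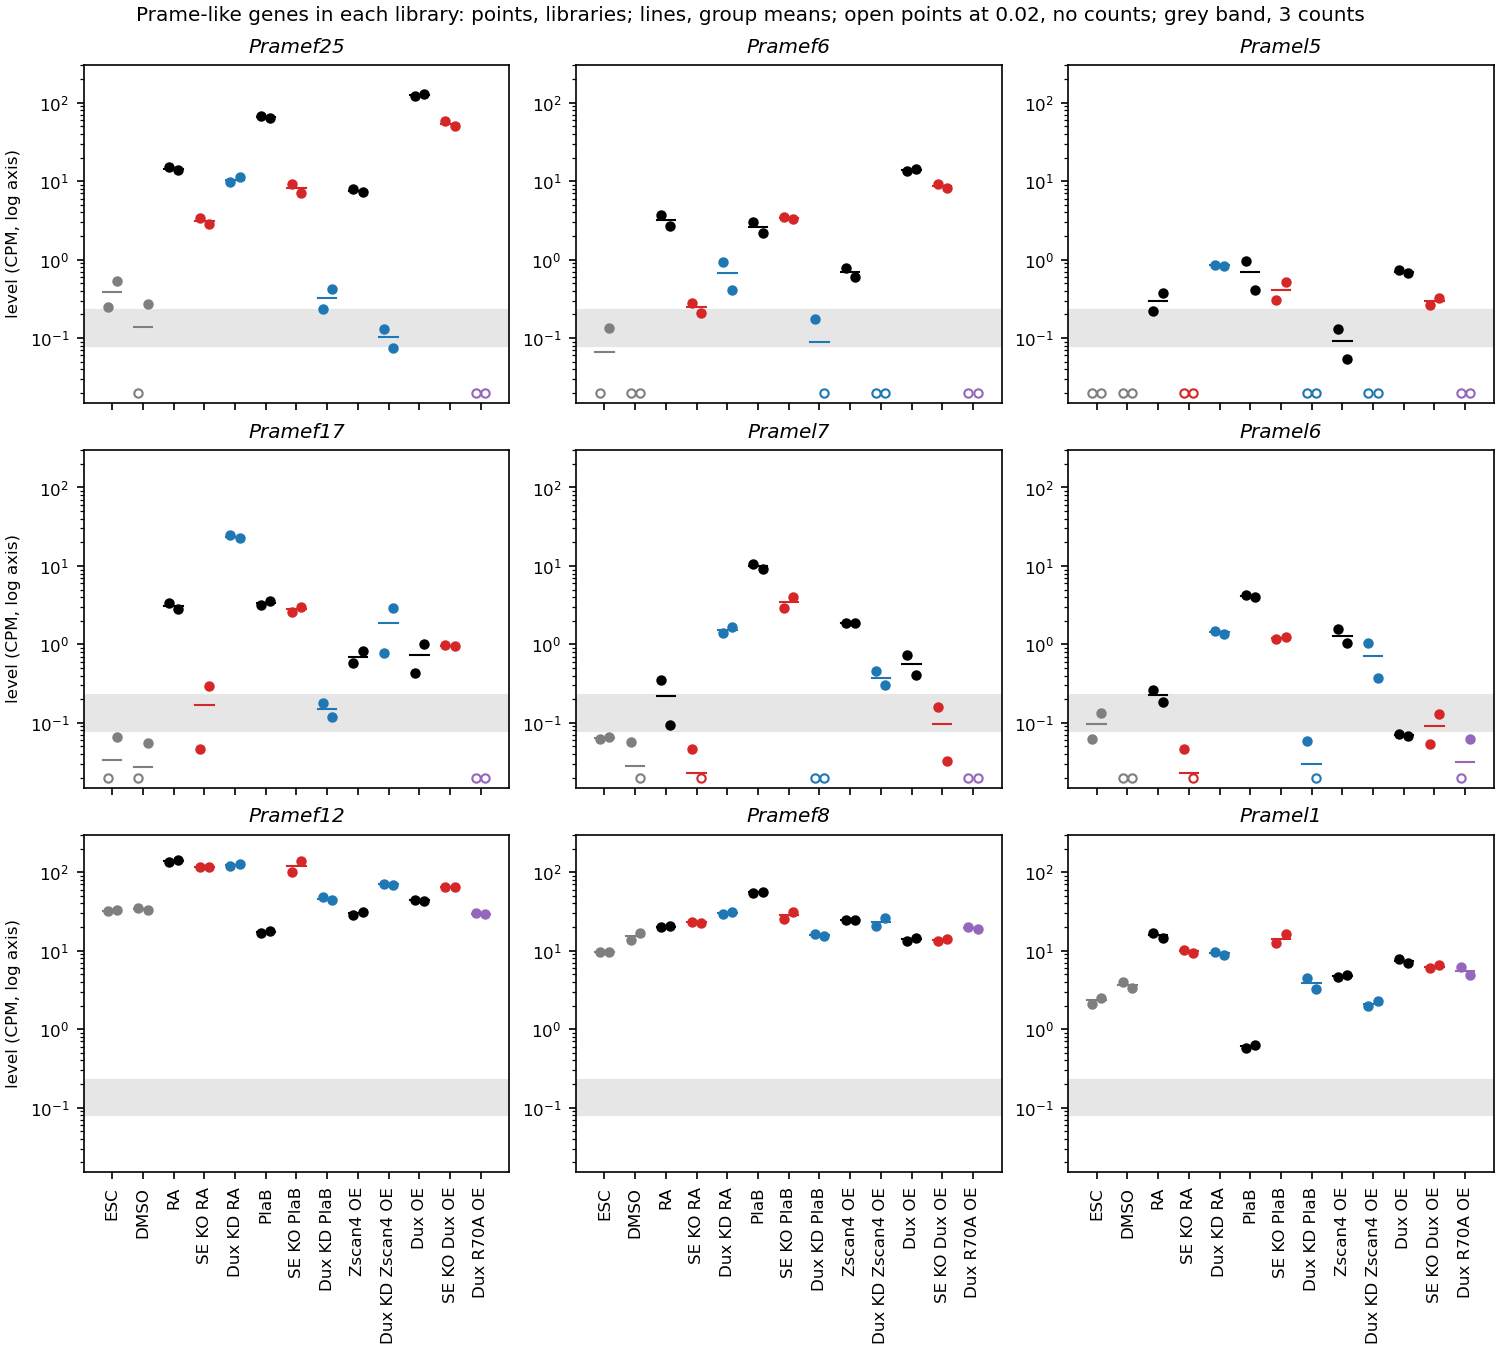
CPM of the 9 tested genes on a log axis, 1 panel a gene. Points are libraries, lines are group means, open points are libraries with no counts, and the grey band spans the CPM of 3 counts. Groups without induction are grey, induced wild-type groups black, SE KO red, Dux KD blue and Dux R70A OE purple. Pramel1, Pramef8 and Pramef12 lie above the band in all 26 libraries, and the other 6 genes lie near or under it in ESC and DMSO.

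RA was compared with DMSO. Of the 9 genes, 8 rose, where 20.6% of all genes tested were called higher and 10.4% lower. A gene was called at a Benjamini-Hochberg adjusted p under 0.05 in edgeR's quasi-likelihood test, over all 20953 genes tested, and a log2 fold change of at least 1 in size. Pramef12, the spermatogonial stem cell gene, was at 136 and 142 CPM in RA and 34.8 and 32.9 CPM in DMSO (log2 fold change 2.03, SE 0.106, edgeR adjusted p = 6.24e-15). This was its highest group mean, though the libraries overlapped those of SE KO PlaB, at 101 and 141 CPM. The testis gene Pramel1 was at 16.7 and 14.6 CPM against 4.03 and 3.35 CPM (log2 fold change 2.09, SE 0.182, edgeR adjusted p = 1.65e-10). Its group mean too was highest in RA, again with libraries overlapping those of SE KO PlaB, at 12.4 and 16.1 CPM. Pramef25 was at 15.1 and 13.8 CPM in RA and had 0 and 5 counts in DMSO (log2 fold change 6.63, SE 0.329, edgeR adjusted p = 5.1e-15).

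The other genes that rose with RA were at or under the floor in DMSO. Pramef6 was at 3.70 and 2.66 CPM and had no counts in DMSO, at least 19-fold higher in RA (edgeR adjusted p = 5.01e-09). Pramef17 was at 3.35 and 2.79 CPM, with 0 and 1 counts in DMSO (ratio 110, 95% counting interval 19.5 to 4390; edgeR adjusted p = 6.15e-08). For all 9 genes, called or not, every RA library was above every DMSO library. Pramel5, Pramel6 and Pramel7 reached low levels only. Pramel5 was at 0.220 and 0.373 CPM and Pramel6 at 0.264 and 0.186 CPM, and with no counts in DMSO they were at least 1.77-fold and at least 1.35-fold higher. Pramel7 was at 0.352 and 0.0932 CPM, with 1 and 0 counts in DMSO (ratio 8.12, 95% counting interval 1.16 to 352; edgeR adjusted p = 0.0376). The call of Pramel7 was lost without RA replicate 1 (log2 fold change 1.53, edgeR adjusted p = 0.422), without DMSO replicate 2 (1.88, edgeR adjusted p = 0.229) and with DESeq2 (adjusted p = 0.0832). Pramef8 was at 20.1 and 20.5 CPM in RA and 13.8 and 16.9 CPM in DMSO. These groups did not overlap either, but the difference was under the fold threshold (log2 fold change 0.40, SE 0.122, edgeR adjusted p = 0.00628).

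Markers of other cell types moved in RA as well. Of the 16 two-cell-like markers, 15 were called higher, and their sum was 667 to 751 CPM in RA against 4.33 to 6.07 CPM in DMSO. Primitive endoderm markers had 6 called higher and 1 lower of 8 tested, summing to 101 to 103 CPM against 10.9 to 13.1 CPM. Of the 9 ESC markers 7 were called lower, and their sum was 5268 to 5309 CPM against 8949 to 9072 CPM. Their part in the result was not tested. In bulk RNA, fewer cells of a type and less RNA per cell cannot be told apart, which holds for all comparisons here.

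In PlaB, also compared with DMSO, 7 genes rose and Pramel1 fell, where 32.3% of all genes were called higher and 26.6% lower. Pramef25 was at 67.6 and 64.5 CPM in PlaB (log2 fold change 8.82, SE 0.283, edgeR adjusted p = 6.53e-20), its highest level after Dux OE. Pramef8 was at 55.0 and 55.5 CPM against 13.8 and 16.9 CPM (log2 fold change 1.85, SE 0.119, edgeR adjusted p = 8.3e-14). No other group had as high a Pramef8 level. The inner cell mass gene Pramel7 was at 10.6 and 9.26 CPM, with 1 and 0 counts in DMSO (ratio 355, 95% counting interval 63.5 to 14100; edgeR adjusted p = 5e-12). Its neighbour Pramel6 was at 4.26 and 3.99 CPM and had no counts in DMSO, at least 24.7-fold higher (edgeR adjusted p = 9.18e-10). Both genes of chromosome 2 were highest in PlaB. Pramef6 was at 3.00 and 2.18 CPM, at least 15.5-fold above DMSO. Pramel5 was at 0.969 and 0.408 CPM, at least 4.11-fold above DMSO. Pramef17 was at 3.15 and 3.54 CPM (ratio 120, 95% counting interval 21.2 to 4780). These 3 had no PlaB library within the DMSO range, which held for all 9 genes, called or not.

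The genes that ESCs express did not move together in PlaB. Pramel1 was at 0.581 and 0.635 CPM against 4.03 and 3.35 CPM (log2 fold change -2.58, SE 0.275, edgeR adjusted p = 2.66e-09), the lowest of all groups. Pramef12 was also at its lowest, 16.7 and 17.7 CPM against 34.8 and 32.9 CPM. Its log2 fold change of -0.98 (SE 0.114, edgeR adjusted p = 1.33e-08) fell just short of the threshold of 1, and without any 1 of the 4 PlaB and DMSO libraries 2 genes were called lower. Over all genes 12331 were called in PlaB, and the median log2 fold change of all genes was 0.22, 0.38 with RLE scaling and 0.48 with scaling by library size alone. Trophectoderm markers had 4 called higher and 2 lower of 6 tested. They summed to 434 to 447 CPM in PlaB against 29.8 to 30.4 CPM in DMSO, and two-cell-like markers to 7434 to 7457 CPM. Of the 9 ESC markers 6 were called lower, and their sum was 5588 to 6107 CPM against 8949 to 9072 CPM. Their part in the result was not tested.

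In Zscan4 OE, compared with untreated ESC, 7 genes rose, where 7.25% of all genes were called higher and 4.39% lower. Pramef25 was at 7.83 and 7.33 CPM against 0.249 and 0.533 CPM (log2 fold change 4.27, SE 0.318, edgeR adjusted p = 1.27e-10). Pramef8 was at 24.5 and 24.3 CPM against 9.53 and 9.53 CPM (log2 fold change 1.35, SE 0.131, edgeR adjusted p = 7.51e-09). The groups of libraries stood apart for all 9 genes, called or not. Pramel7 was at 1.88 and 1.85 CPM, with 1 and 1 counts in ESC (ratio 28.9, 95% counting interval 7.67 to 244), and Pramel6 at 1.55 and 1.03 CPM, with 1 and 2 counts in ESC (ratio 13.1, 95% counting interval 4.21 to 66.2). Pramef6 was at 0.777 and 0.597 CPM, with 0 and 2 counts (ratio 10.5, 95% counting interval 2.61 to 92.3), and Pramef17 at 0.582 and 0.815 CPM, with 0 and 1 counts (ratio 22, 95% counting interval 3.59 to 905). The edgeR adjusted p of these 4 genes were 5.83e-06, 0.00016, 0.00303 and 0.00299. Pramel1 was at 4.66 and 4.89 CPM against 2.12 and 2.53 CPM (log2 fold change 1.04, SE 0.224, edgeR adjusted p = 0.000496). Pramef12 was at 28.9 and 30.9 CPM against 32.0 and 32.6 CPM (log2 fold change -0.11, SE 0.112, edgeR adjusted p = 0.469). The calls of Pramel1 and Pramef8 were lost when DMSO was the control (log2 fold changes 0.38 and 0.66). Without ESC replicate 1, those of Pramel1 (0.92, edgeR adjusted p = 0.0158) and Pramef6 (2.31, edgeR adjusted p = 0.0583) were lost. Of the 16 two-cell-like markers 14 were called higher, summing to 279 to 287 CPM against 25.5 to 27.6 CPM in ESC, and their part in the result was not tested.

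In Dux OE, also compared with ESC, 6 genes rose, where 7.38% of all genes were called higher and 2.12% lower. Pramef25 was at 122 and 129 CPM against 0.249 and 0.533 CPM (log2 fold change 8.32, SE 0.245, edgeR adjusted p = 1.27e-19). At a mean of 74.6 RPKM it was the highest member in any group. Pramef6, a nearby gene of the cluster, was at 13.3 and 14.1 CPM, with 0 and 2 counts in ESC (ratio 214, 95% counting interval 58.7 to 1770; edgeR adjusted p = 3.15e-11). It too was highest in Dux OE. Pramel1 was at 7.73 and 7.03 CPM (log2 fold change 1.67, SE 0.217, edgeR adjusted p = 1.14e-06). Pramel5 was at 0.729 and 0.676 CPM, at least 3.63-fold above ESC, where it had no counts (edgeR adjusted p = 0.00115).

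Pramel7 and Pramef17 rose in Dux OE as well, to low levels. Pramel7 was at 0.729 and 0.406 CPM (ratio 8.71, 95% counting interval 2.05 to 78.1; edgeR adjusted p = 0.012) and Pramef17 at 0.438 and 1.01 CPM (ratio 22.9, 95% counting interval 3.68 to 946; edgeR adjusted p = 0.00449). The call of Pramel7 was lost without ESC replicate 1 (log2 fold change 2.93, edgeR adjusted p = 0.0866), ESC replicate 2 (3.02, edgeR adjusted p = 0.0717) or Dux OE replicate 1 (2.52, edgeR adjusted p = 0.119). That of Pramef17 was lost without ESC replicate 1 (3.31, edgeR adjusted p = 0.0671) or Dux OE replicate 2 (3.49, edgeR adjusted p = 0.0891). Pramel6 had 1 and 1 counts in Dux OE and 1 and 2 counts in ESC. Pramef12 was at 44.9 and 43.2 CPM (log2 fold change 0.45, SE 0.110, edgeR adjusted p = 0.00292) and Pramef8 at 13.5 and 14.5 CPM (log2 fold change 0.56, SE 0.138, edgeR adjusted p = 0.00299), both under the fold threshold. Of the 16 two-cell-like markers 15 were called higher in Dux OE, and their part in the result was not tested. Dux OE and Zscan4 OE share the ESC control, as RA and PlaB share DMSO, so agreement between them is not independent.

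Dux R70A OE was set against Dux OE to ask which genes differ with the mutation. Of the 9 genes, 5 were called lower, where 7.51% of all genes were called lower and 6.11% higher. Pramef25, Pramef6, Pramef17, Pramel5 and Pramel7 had no counts in either Dux R70A OE library. The fall from Dux OE was at least 719-fold for Pramef25 (edgeR adjusted p = 2.86e-20) and at least 78.6-fold for Pramef6 (edgeR adjusted p = 8.91e-12). Pramef17, Pramel5 and Pramel7, which were low in Dux OE too, were at least 4.15-fold, at least 4.02-fold and at least 3.25-fold lower. The 3 genes that ESCs express were still present in Dux R70A OE. Pramef12 was at 30.1 and 29.2 CPM (log2 fold change -0.57, SE 0.110, edgeR adjusted p = 0.000161), Pramef8 at 19.9 and 18.8 CPM (log2 fold change 0.46, SE 0.128, edgeR adjusted p = 0.0049) and Pramel1 at 6.23 and 4.84 CPM (log2 fold change -0.41, SE 0.189, edgeR adjusted p = 0.0912).

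Against ESC, Dux R70A OE had 2 genes called higher and 1 lower, where 10.2% of all genes were called higher and 6.72% lower. Pramel1 was at 6.23 and 4.84 CPM against 2.12 and 2.53 CPM (log2 fold change 1.26, SE 0.219, edgeR adjusted p = 3.16e-05), and Pramef8 at 19.9 and 18.8 CPM against 9.53 and 9.53 CPM (log2 fold change 1.02, SE 0.132, edgeR adjusted p = 4.35e-07). Both mutant libraries were above both ESC libraries for each gene. Pramef25, with 4 and 8 counts in ESC, was at least 2.24-fold lower (edgeR adjusted p = 0.0013). Pramef12 was at 32.0 and 32.6 CPM in ESC (log2 fold change -0.12, SE 0.112, edgeR adjusted p = 0.396). With DMSO as the control all 3 calls were lost, with log2 fold changes of 0.59 for Pramel1 and 0.33 for Pramef8 and an edgeR adjusted p of 0.0524 for Pramef25. Without Dux R70A OE replicate 1, Pramef8 was at a log2 fold change of 0.98 and was not called. Without ESC replicate 1, 2 genes were called lower. Of the 16 two-cell-like markers 8 were called lower, and their sum was 1.13 to 1.26 CPM against 25.5 to 27.6 CPM in ESC. Their part in the result was not tested.

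**Figure D3:**
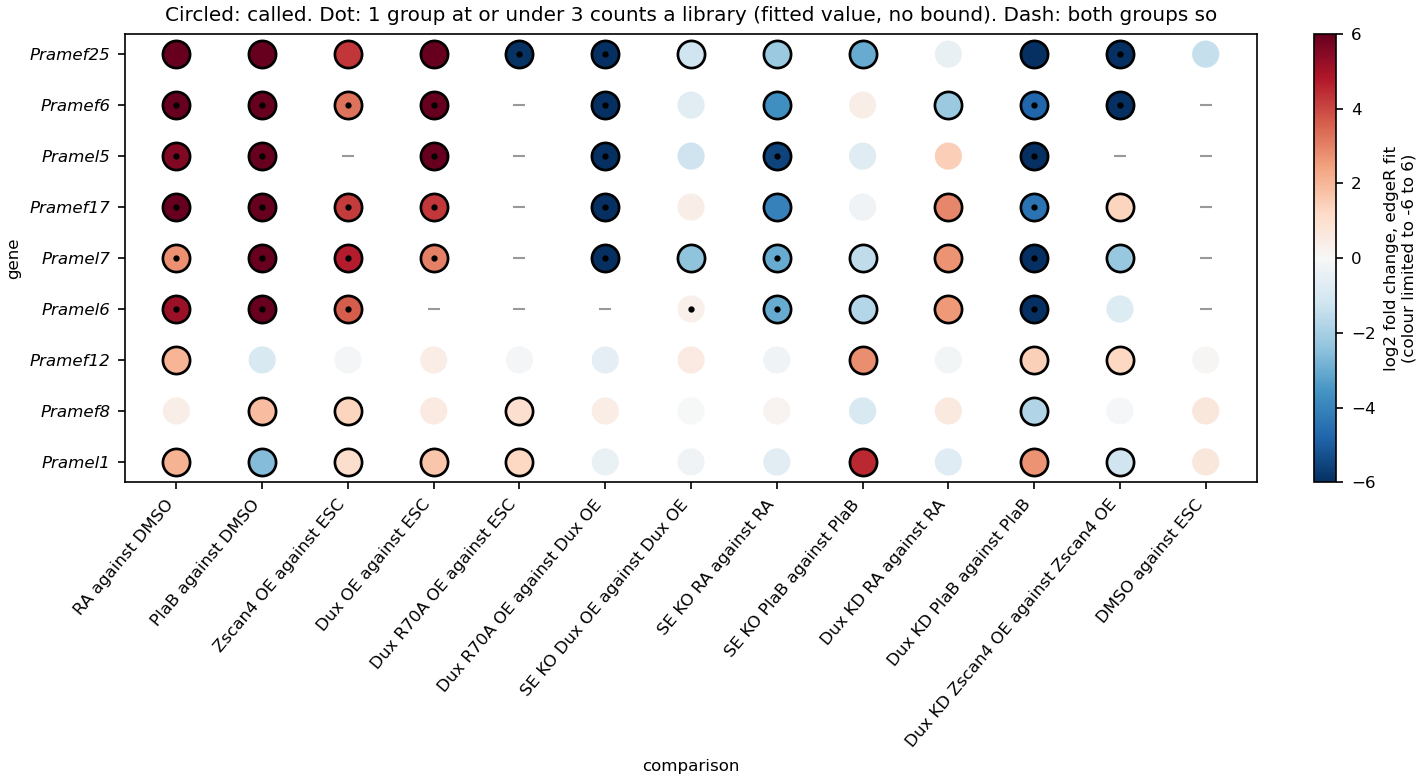
Log2 fold changes fitted by edgeR for the 9 tested genes (rows) in the 13 comparisons of 2 groups (columns). Circled cells were called, a dot marks a group at or under 3 counts in each library, where the fitted value is no bound, and a dash marks both groups so. Pramef25 is called higher in all 4 wild-type inductions, and Pramel1 lower in PlaB.

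The deletion of the super-enhancer was compared with wild-type cells in each of 3 inductions. In RA, 6 of the 9 genes were called lower, where 11% of all genes were called lower and 6.57% higher. Pramef25 was at 3.40 and 2.84 CPM in SE KO RA against 15.1 and 13.8 CPM in RA (log2 fold change -2.22, SE 0.180, edgeR adjusted p = 2.72e-10). Pramef6 was at 0.279 and 0.212 CPM against 3.70 and 2.66 CPM (log2 fold change -3.67, SE 0.431, edgeR adjusted p = 2.29e-07). Pramef17 was at 0.0465 and 0.296 CPM against 3.35 and 2.79 CPM (log2 fold change -4.07, SE 0.524, edgeR adjusted p = 5.54e-07). For all 9 genes, called or not, the deleted and RA libraries did not overlap, and for these 3 both deleted libraries were lower. Pramel5 had no counts, at least 2.22-fold lower (edgeR adjusted p = 0.00327). Pramel7 had 1 and 0 counts and Pramel6 1 and 0 counts, and for each the ratio of RA to SE KO RA was 10.2, 95% counting interval 1.45 to 443 (edgeR adjusted p = 0.0252 and 0.0232).

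Without SE KO RA replicate 1, the library with the conflicting labels, 6 genes were again called lower, with log2 fold changes of -2.35 for Pramef25, -3.87 for Pramef6 and -3.35 for Pramef17. The calls of Pramel7 and Pramel6 were lost without SE KO RA replicate 2 (edgeR adjusted p = 0.185 and 0.183), without RA replicate 1 (edgeR adjusted p = 0.378 and 0.113) and with DESeq2 (adjusted p = 0.0653 and 0.071). The ESC-expressed genes differed less. Pramef12 was at 116 and 116 CPM (log2 fold change -0.25, SE 0.0982, edgeR adjusted p = 0.0369), Pramef8 at 23.1 and 22.6 CPM (log2 fold change 0.17, SE 0.117, edgeR adjusted p = 0.236) and Pramel1 at 10.3 and 9.35 CPM (log2 fold change -0.67, SE 0.161, edgeR adjusted p = 0.00115). Two-cell-like markers summed to 64.3 to 65.5 CPM in SE KO RA and 667 to 751 CPM in RA, and ESC markers to 3639 to 3662 CPM and 5268 to 5309 CPM. Their part in the result was not tested.

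In PlaB the deletion went with 3 genes called lower and 2 higher, where 26.1% of all genes were called lower and 25.9% higher. Pramef25 was at 9.24 and 7.14 CPM against 67.6 and 64.5 CPM (log2 fold change -3.01, SE 0.153, edgeR adjusted p = 1.33e-15). Pramel7 was at 2.95 and 4.01 CPM against 10.6 and 9.26 CPM (log2 fold change -1.51, SE 0.298, edgeR adjusted p = 7.34e-05), and Pramel6 at 1.17 and 1.26 CPM against 4.26 and 3.99 CPM (log2 fold change -1.76, SE 0.392, edgeR adjusted p = 0.000281). Pramel1 and Pramef12, the genes that were lowest in PlaB, went the other way. Pramel1 was at 12.4 and 16.1 CPM against 0.581 and 0.635 CPM (log2 fold change 4.53, SE 0.236, edgeR adjusted p = 9.68e-16), and Pramef12 at 101 and 141 CPM against 16.7 and 17.7 CPM (log2 fold change 2.81, SE 0.111, edgeR adjusted p = 2.51e-18). By chi-square over genes, which grows with depth, the replicates of SE KO PlaB differed most of all groups (30.2 per degree of freedom). By Pearson r those of Dux KD Zscan4 OE were least alike, at 0.983 against 0.9861 in SE KO PlaB. Leaving out either SE KO PlaB library reversed the direction of none of these 5 genes. Pramef8 was at 25.5 and 31.0 CPM (log2 fold change -0.97, SE 0.112, edgeR adjusted p = 1.41e-08), under the fold threshold. Pramef6 was at 3.47 and 3.31 CPM (log2 fold change 0.39, SE 0.295, edgeR adjusted p = 0.24) and Pramef17 at 2.56 and 3.03 CPM (log2 fold change -0.26, SE 0.333, edgeR adjusted p = 0.492). Two-cell-like markers summed to 624 to 719.9 CPM in SE KO PlaB and 7434 to 7457 CPM in PlaB, and primitive endoderm markers to 129 to 140.3 CPM and 38.1 to 42.2 CPM, and their part in the result was not tested.

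In Dux OE, 2 of the 9 genes were called lower with the deletion, where 3.84% of all genes were called lower and 2.46% higher. Pramef25 was at 57.6 and 50.5 CPM against 122 and 129 CPM (log2 fold change -1.22, SE 0.133, edgeR adjusted p = 3.2e-07). It was still far above its level in ESC, with a log2 fold change of 7.10 (edgeR adjusted p = 1.13e-17). Pramel7 had 6 and 1 counts against 10 and 6 counts (log2 fold change -2.39, SE 0.665, edgeR adjusted p = 0.0096). This call was lost without Dux OE replicate 1 (log2 fold change -1.91, edgeR adjusted p = 0.16) or SE KO Dux OE replicate 2 (-1.76, edgeR adjusted p = 0.0785). Pramef6 was at 9.11 and 8.15 CPM against 13.3 and 14.1 CPM (log2 fold change -0.67, SE 0.247, edgeR adjusted p = 0.0493), under the fold threshold. Pramef12 was at 65.4 and 64.3 CPM (log2 fold change 0.56, SE 0.104, edgeR adjusted p = 0.000272) and Pramef8 at 13.2 and 14.1 CPM (log2 fold change -0.04, SE 0.126, edgeR adjusted p = 0.866). Of the 16 two-cell-like markers 11 were called lower, and their sum was 1753 to 1988 CPM against 4064 to 4199 CPM. Fibroblast markers could mark feeder cells, though the cultures are given as on gelatin. They had 3 called higher and 0 lower of 4 tested and summed to 103 to 104 CPM against 44.5 to 47.3 CPM. Their part in the result was not tested.

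Dux knockdown was likewise compared in 3 inductions. In RA, 3 genes were called higher and 1 lower, where 6.41% of all genes were called higher and 4.53% lower. Pramef17 was at 24.6 and 22.6 CPM in Dux KD RA against 3.35 and 2.79 CPM in RA (log2 fold change 2.94, SE 0.308, edgeR adjusted p = 4.81e-08), its highest level of all groups. Its near copy Gm13128 was at 42.4 and 43.5 CPM against 5.73 and 5.54 CPM (log2 fold change 2.93, SE 0.375, edgeR adjusted p = 9.5e-07), and with most of their sequence shared the rise cannot be assigned to 1 of them. Pramel7 was at 1.38 and 1.65 CPM against 0.352 and 0.0932 CPM (log2 fold change 2.71, SE 0.509, edgeR adjusted p = 0.000161), and Pramel6 at 1.49 and 1.36 CPM against 0.264 and 0.186 CPM (log2 fold change 2.62, SE 0.543, edgeR adjusted p = 0.00042). These genes share almost no stretch of 50 bases with any other gene. Pramef6 fell, from 3.70 and 2.66 CPM to 0.919 and 0.412 CPM (log2 fold change -2.24, SE 0.380, edgeR adjusted p = 5.5e-05). The groups did not overlap for any of the 9 genes, called or not, so this does not set the 4 apart. Pramef25 was at 9.76 and 11.2 CPM (log2 fold change -0.46, SE 0.159, edgeR adjusted p = 0.0232), Pramef12 at 121 and 126 CPM (log2 fold change -0.17, SE 0.0986, edgeR adjusted p = 0.192) and Pramef8 at 29.2 and 31.2 CPM (log2 fold change 0.58, SE 0.117, edgeR adjusted p = 0.000317), all under the fold threshold. Two-cell-like markers had 1 higher and 4 lower of 16 and summed to 398 to 414 CPM, against 667 to 751 CPM in RA, and their part in the result was not tested.

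In PlaB, Dux knockdown went with 7 genes called lower and 2 higher, where 28.8% of all genes were called lower and 26.1% higher. Pramef25 was at 0.236 and 0.419 CPM against 67.6 and 64.5 CPM (log2 fold change -7.63, SE 0.253, edgeR adjusted p = 1.75e-19). Pramel7 had no counts, at least 55.7-fold lower than its 10.6 and 9.26 CPM in PlaB. Pramel6 had 1 and 0 counts (ratio of PlaB to Dux KD PlaB 139, 95% counting interval 24.6 to 5520). For each of these genes the groups were far apart. Pramef6 had 3 and 0 counts (ratio 28.9, 95% counting interval 9.64 to 142), Pramef17 3 and 2 counts (ratio 22.6, 95% counting interval 9.45 to 70.6), and Pramel5 no counts, at least 3.86-fold lower. Pramef8 was at 16.2 and 15.4 CPM (log2 fold change -1.81, SE 0.119, edgeR adjusted p = 1.59e-13). The genes that were higher were again Pramel1 and Pramef12. Pramel1 was at 4.54 and 3.29 CPM (log2 fold change 2.67, SE 0.275, edgeR adjusted p = 1.47e-09) and Pramef12 at 48.0 and 44.0 CPM (log2 fold change 1.42, SE 0.113, edgeR adjusted p = 7.63e-12).

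The levels in Dux KD PlaB were near those of DMSO. Pramel7, Pramel6, Pramef6, Pramef17 and Pramel5 were at or under the floor in both groups, where a call was hardly possible. In a comparison of Dux KD PlaB with DMSO that was added after the data were seen, edgeR called 0 of the 9 genes, with 1 higher and 0 lower at an unadjusted p under 0.05, and DESeq2 called 0 higher and 0 lower. Over all genes, 7.53% were called higher and 4.14% lower, against 32.3% and 26.6% for PlaB itself. Two-cell-like markers summed to 5.90 to 7.30 CPM in Dux KD PlaB and trophectoderm markers to 37.4 CPM in both libraries, against 4.33 to 6.07 CPM and 29.8 to 30.4 CPM in DMSO. The loss of the members and the loss of the other changes that came with PlaB cannot be told apart in these libraries.

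In Zscan4 OE, Dux knockdown went with 4 genes called lower and 2 higher, where 5.35% of all genes were called lower and 5.78% higher. Pramef25 had 2 and 1 counts, against 7.83 and 7.33 CPM in Zscan4 OE (ratio of Zscan4 OE to Dux KD Zscan4 OE 72.3, 95% counting interval 24.5 to 353; edgeR adjusted p = 2.96e-11). Pramef6 had no counts, at least 3.27-fold lower (edgeR adjusted p = 0.00058). Pramel7 was at 0.455 and 0.301 CPM against 1.88 and 1.85 CPM (log2 fold change -2.26, SE 0.497, edgeR adjusted p = 0.000953). Both libraries were lower for each of these genes. Pramel1 was at 1.95 and 2.26 CPM against 4.66 and 4.89 CPM (log2 fold change -1.19, SE 0.231, edgeR adjusted p = 0.00024). Pramef12 was higher, at 71.8 and 68.3 CPM against 28.9 and 30.9 CPM (log2 fold change 1.23, SE 0.108, edgeR adjusted p = 1.85e-09). Pramef17 was at 0.779 and 2.94 CPM against 0.582 and 0.815 CPM (log2 fold change 1.35, SE 0.489, edgeR adjusted p = 0.0358), with overlapping groups. Its call was lost without Dux KD Zscan4 OE replicate 2 (log2 fold change 0.13, edgeR adjusted p = 0.914) and without Zscan4 OE replicate 1 (1.14, edgeR adjusted p = 0.174) or 2 (1.62, edgeR adjusted p = 0.084). Pramef8 was at 20.7 and 26.1 CPM (log2 fold change -0.06, SE 0.121, edgeR adjusted p = 0.744). Two-cell-like markers summed to 3.64 to 5.35 CPM, against 279 to 287 CPM in Zscan4 OE and 25.5 to 27.6 CPM in ESC. Their part in the result was not tested. The Dux KD Zscan4 OE replicates also differed from each other, with a chi-square of 26.1 per degree of freedom over genes. As their treatment entry is "no", the labels do not show that Zscan4 was induced in them. Dux knockdown and lack of induction can then not be told apart here.

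The other deleted and knocked-down groups were set against the group without induction in the same added way, which mixes the induction with the perturbation, and none of the 9 genes was called lower in them. In SE KO PlaB 8 of the 9 genes were above DMSO, where 17.1% of all genes were called higher and 11% lower. In Dux KD RA 8 were, where 22% of all genes were called higher and 9.9% lower. In SE KO RA 4 were above DMSO (Pramel1, Pramef6, Pramef25 and Pramef12), where 17.3% of all genes were called higher and 9.88% lower. In SE KO RA replicate 2 alone, without the library of conflicting labels, these 4 genes were at 9.35, 0.212, 2.84 and 116 CPM, each above both DMSO libraries. In Dux KD Zscan4 OE 4 were above ESC (Pramel6, Pramef8, Pramef17 and Pramef12), where 5.57% were and 2.55% were lower. In SE KO Dux OE 6 were above ESC, where 9.02% were and 3.84% were lower.

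Whether a perturbation acted differently in different inductions was tested directly, as a difference of log2 fold changes with RA as the reference. For Dux knockdown in PlaB, 2 members differed upwards and 7 downwards, where 25.5% and 26.6% of all genes did. Pramef25 differed by -7.17 (edgeR adjusted p = 2.55e-16) and Pramel1 by 3.42 (edgeR adjusted p = 3.53e-10). Duxf3 kept more counts in Dux KD RA than in Dux KD PlaB, as given above. The part of this in the differences was not tested. For Dux knockdown in Zscan4 OE, with the open induction described above, the counts were 1 and 4, with 6.04% and 6.22% of all genes. For the deletion in PlaB they were 5 and 1, with 28.3% and 20.7%, and Pramef6, lower with the deletion in RA but not in PlaB, differed by 4.06 (SE 0.534, edgeR adjusted p = 3.86e-07). For the deletion in Dux OE, 3 members differed upwards and 0 downwards, with 12.1% and 8.75% of all genes, and Pramef6 differed by 3.00 (SE 0.517, edgeR adjusted p = 5.41e-05). Without SE KO RA replicate 1 the counts were 4 and 1 in PlaB, where Pramel5 was no longer called. In Dux OE they were 3 and 0, with a change of members, since Pramel5 was no longer called (edgeR adjusted p = 0.141) and Pramef25 was. The deletion effect on Pramef25 in Dux OE and in RA differed by 0.999 (SE 0.225, edgeR adjusted p = 0.000834). Without that library the difference was 1.13 (edgeR adjusted p = 0.00216), past the threshold of 1.

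The 2 groups without induction were set against each other as a measure of background. Only 4 of the 9 genes were above the floor in either group, so the others could hardly be called. In DMSO against ESC, edgeR called 0 of the 9 genes, with 2 higher and 1 lower at an unadjusted p under 0.05, and DESeq2 called 0 higher and 0 lower, where 8.32% of all genes were called higher and 7.91% lower. Pramef8 was at 13.8 and 16.9 CPM in DMSO against 9.53 and 9.53 CPM in ESC (log2 fold change 0.69, SE 0.134, edgeR adjusted p = 0.000128), and Pramef12 at 34.8 and 32.9 CPM against 32.0 and 32.6 CPM (log2 fold change 0.07, SE 0.111, edgeR adjusted p = 0.666). Pramef25 had 0 and 5 counts against 4 and 8 counts (log2 fold change -1.43, SE 0.728, edgeR adjusted p = 0.118), with overlapping groups. The counts of the 3 genes that were not tested were low throughout. Pramel3 had 7 and 9 counts in Dux KD RA and 6 and 4 counts in Dux KD Zscan4 OE, against 2 and 0 counts in RA and 5 and 2 counts in Zscan4 OE. Pramef20 had 5 and 4 counts in Dux KD RA and at most 2 in any other library. Pramef12os had its most counts in PlaB, 15 and 6, and with strand use in counting not stated these cannot be told from reads of an unspliced Pramef12 transcript.

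Over the 13 group means the members' log2 CPM profiles fell into sets. The correlations describe these groups, which share cell line and controls. Pramef6 and Pramef25 had a Pearson r of 0.948, and the chromosome 2 neighbours Pramel7 and Pramel6 of 0.943. Pramel1 and Pramef12, at either side of the chromosome 4 cluster, had an r of 0.790, whereas Pramel1 and Pramel6 had an r of -0.283. Pramef17 had its highest r among the members with Pramel5 of the same cluster, 0.803. Next were Pramel6 (0.765) and Pramel7 (0.72) on the other chromosome, and with Pramef25, which lies close to it, r was 0.603. Pramel5 had an r of 0.867 with Pramef25 and of 0.838 with Pramef6. Among all other genes tested, those most like the summed family were Csmd1 (r = 0.91), Adcy2 (0.906), Ccdc91 (0.902), Gm11545 (0.9) and Dpf3 (0.898), over 13 groups. Pramef17 was most like Gm13128 (r = 0.993), its near copy, with which reads may be exchanged. Pramef6 was like Gm13078 (r = 0.986), though the gene sharing most of its stretches of 50 bases was Gm13083 (31.4%).

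Other PRAME-family genes carry names outside Pramef and Pramel. Of 27 in the data, 12 were tested, and edgeR called 12 of these higher in PlaB, 10 in Dux OE, 8 in RA and 5 in Zscan4 OE, where 32.3%, 7.38%, 20.6% and 7.25% of all genes were. In Dux R70A OE all 27 were at or under the floor, as were 24 in ESC, 25 in DMSO and 12 in Dux OE. The highest were Gm12794, at 171 and 159 CPM in PlaB and 89.97 and 99.97 CPM in Dux OE, and Gm13119, at 140 and 122 CPM and 50.4 and 51.4 CPM. Neither was above 1 CPM in ESC. With the deletion, 8 were called lower in RA, 9 in PlaB and 1 in Dux OE, where 11%, 26.1% and 3.84% of all genes were. With Dux knockdown, 12 were called lower in PlaB and 6 in Zscan4 OE, where 28.8% and 5.35% of all genes were. In RA the knockdown went with 3 lower and 2 higher, where 4.53% and 6.41% were. The open induction of Dux KD Zscan4 OE, described above, bears on its count. Along chromosome 4, the members that ESCs express lie at the ends of the cluster. Pramel1 and Pramef8 come first, Pramef12 comes last, and the induced copies Pramef6, Pramef25 and Pramef17 lie between them.

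**Figure D4:**
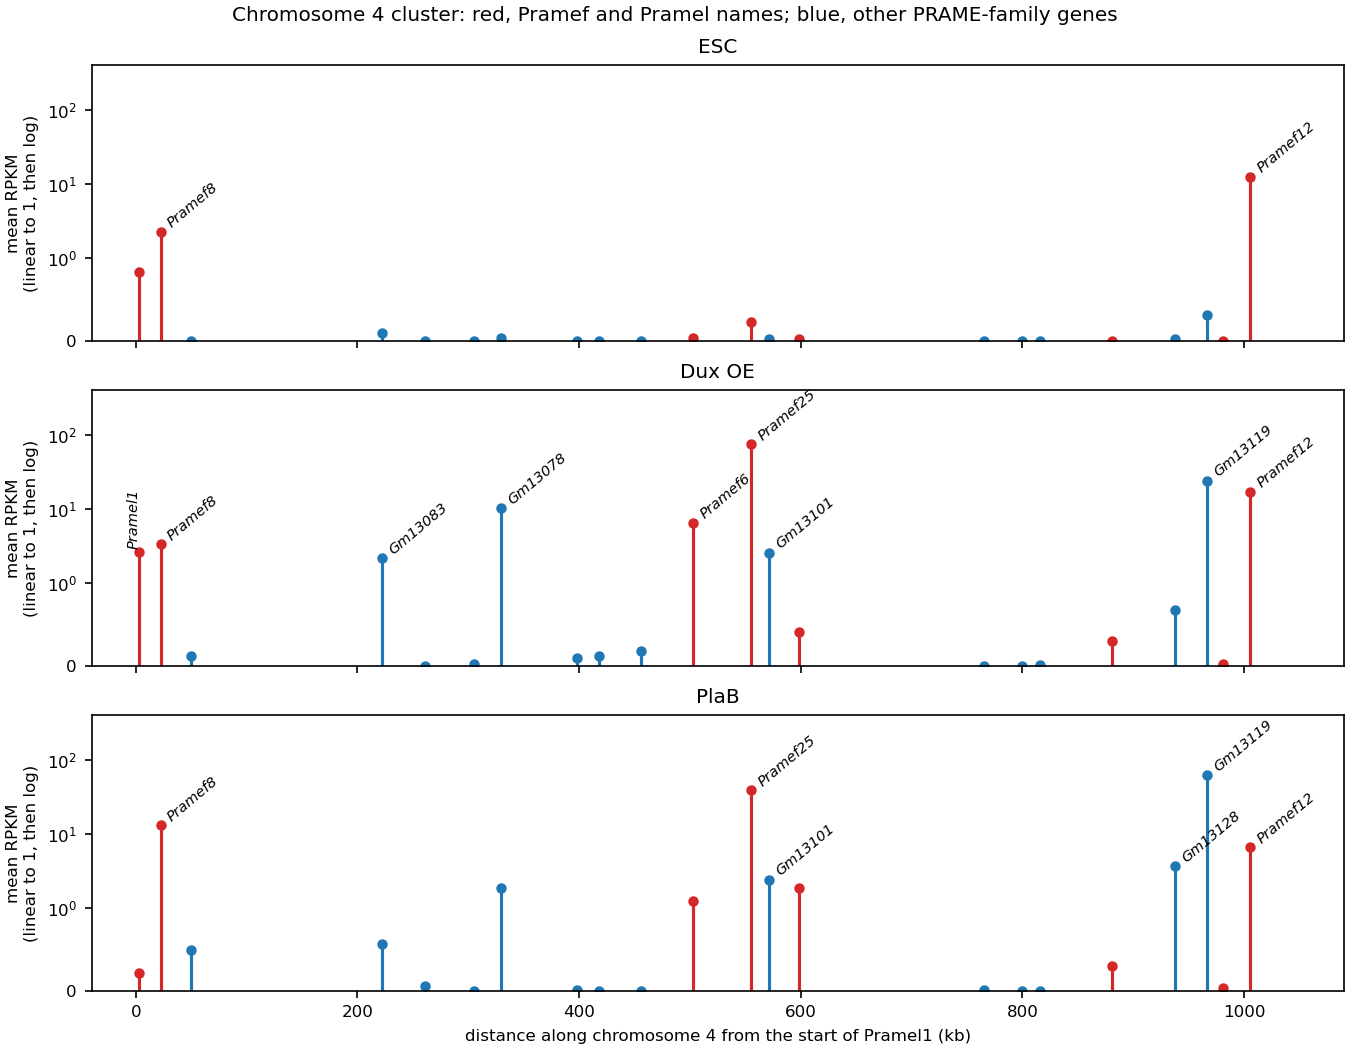
Mean RPKM (2 libraries) of PRAME-family genes along chromosome 4, by distance in kb from the start of Pramel1, in ESC, Dux OE and PlaB. Red marks Pramef and Pramel genes and blue other PRAME-family genes. Pramef12 is at 12.6 RPKM in ESC, and Pramef25 goes from 0.232 RPKM in ESC to 74.6 RPKM in Dux OE and 39.2 RPKM in PlaB.

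Genes that work with PRAME proteins were counted over whole lists, and the counts are to be read against the share of all genes. In PlaB 32.3% of all genes were called higher and 26.6% lower, in RA 20.6% and 10.4%, and in Dux OE 7.38% and 2.12%. Of 5 subunits and partners of the CUL2 ligase, 2 were called higher in PlaB, the elongins Elob (294 against 123 CPM in DMSO, log2 fold change 1.25, SE 0.121, edgeR adjusted p = 3.65e-10) and Eloc (215 against 101 CPM, log2 fold change 1.09, SE 0.0938, edgeR adjusted p = 3.51e-11). Of 7 DNA methylation genes, 5 were called lower in RA, 5 in PlaB and 1 in Dux OE. Uhrf1, whose protein PRAMEL7 targets, was lower in RA (182 against 404 CPM in DMSO, log2 fold change -1.15, SE 0.0764, edgeR adjusted p = 8.28e-13) and in PlaB (119 against 404 CPM, log2 fold change -1.77, SE 0.0780, edgeR adjusted p = 2.1e-17). These are RNA levels, and protein was not measured. Of 5 genes of LIF and STAT3 signalling, 3 were called lower in PlaB, among them the receptor subunit Il6st (6.92 against 85.0 CPM, log2 fold change -3.62, SE 0.0981, edgeR adjusted p = 7.78e-22). In RA, the LIF receptor Lifr was lower (51.6 against 180 CPM, log2 fold change -1.80, SE 0.104, edgeR adjusted p = 4.55e-14) and the kinase Jak1 higher (187 against 87.8 CPM, log2 fold change 1.09, SE 0.0800, edgeR adjusted p = 5.97e-12). Of 6 retinoic acid receptors, 1 was called higher in RA, the known RA target Rarb (mean 10.1 against 0.194 CPM), and 1 lower, Rxrg (mean 1.66 against 3.65 CPM). In PlaB 3 were called lower. Neural markers had 0 called higher and 2 lower of 4 tested in PlaB. Fibroblast markers had 2 called higher and 0 lower of 4 tested in RA and 2 called higher and 1 lower of 4 tested in PlaB. They summed to 34.2 to 34.9 CPM in DMSO, 51.3 to 60.4 CPM in RA and 9.45 to 12.5 CPM in PlaB, so the sum was higher than in DMSO in RA and lower in PlaB.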

How the data were processed

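Poly(A) RNA-seq of 26 R1 ESC libraries in 13 groups was used. The authors deposited raw read counts per gene for all libraries. Libraries were made with the NEBNext Ultra II kit. The submitters' processing notes name mm10, FastQC, Trimmomatic, STAR, featureCounts and DESeq2. Versions, strand setting and the treatment of reads with several positions are not given in the sources used here.

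The counts were analysed with edgeR 4.0.16 in R 4.3.3 (limma 3.58.1). Genes were filtered with filterByExpr by group, which left 20953 of 55291, scaled by TMM and fitted in 1 quasi-likelihood model with a mean for each group. Comparisons were contrasts, with Benjamini-Hochberg adjustment over all genes tested, and a gene was called at an adjusted p under 0.05 and a log2 fold change of at least 1 in size, with a prior count of 0.125. DESeq2 1.42.0 and other scalings, filters, controls and left-out libraries were alternatives. Against a group with 0 counts in both libraries a fold is a bound computed with 3 counts a library, and with 1 to 3 counts a ratio with its 95% counting interval is given. Alignments were made with MAFFT 7.526. The fit was tested on simulated data.

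Samples were grouped by their titles. The members and lists were chosen with earlier results of these data known. Every member that passed the filter is named. Library values are given for a member where it was called and for the 3 members highest by mean RPKM. Up to 4 genes are named from each other list, those highest by mean CPM. Il6st, Rarb and Rxrg were named outside this rule, after their values were seen. The comparisons of perturbed groups with DMSO or ESC were added after the data were seen.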

Additional observations from a re-analysis of the deposited data

Results flagged for a closer look

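The effect of a perturbation differed between inductions for the genes below, by a test of the difference itself in edgeR (quasi-likelihood test, adjusted over all genes, differences of log2 fold changes). Values that involve a group at or under 3 counts in each library are fitted values and not bounds.

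For the Dux knockdown effect in PlaB minus that in RA, the differences were Pramel1 3.42 (edgeR adjusted p = 3.53e-10), Pramef8 -2.38 (edgeR adjusted p = 9.06e-13), Pramef25 -7.17 (edgeR adjusted p = 2.55e-16) and Pramef12 1.59 (edgeR adjusted p = 3.7e-10). With such a group they were Pramel7 -13.30 (edgeR adjusted p = 1.21e-11), Pramel6 -9.46 (edgeR adjusted p = 1.16e-09), Pramef6 -2.52 (edgeR adjusted p = 0.0114), Pramef17 -7.37 (edgeR adjusted p = 8.64e-11) and Pramel5 -8.24 (edgeR adjusted p = 7.58e-05).

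For the Dux knockdown effect in Zscan4 OE minus that in RA, the differences were Pramel7 -4.97 (edgeR adjusted p = 9.97e-06), Pramel6 -3.44 (edgeR adjusted p = 0.000839), Pramef17 -1.59 (edgeR adjusted p = 0.0489) and Pramef12 1.40 (edgeR adjusted p = 6.72e-08). With such a group they were Pramef25 -5.63 (edgeR adjusted p = 4.77e-09). Whether Zscan4 was induced in Dux KD Zscan4 OE is open, as described above, which bears on all of these.

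For the deletion effect in PlaB minus that in RA, the differences were Pramel1 5.21 (edgeR adjusted p = 8.19e-15), Pramef8 -1.14 (edgeR adjusted p = 6.17e-07), Pramef6 4.06 (edgeR adjusted p = 3.86e-07), Pramef17 3.81 (edgeR adjusted p = 1.25e-05) and Pramef12 3.07 (edgeR adjusted p = 3.44e-16). With such a group they were Pramel5 4.81 (edgeR adjusted p = 0.0155).

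For the deletion effect in Dux OE minus that in RA, the differences were Pramef6 3.00 (edgeR adjusted p = 5.41e-05) and Pramef17 4.46 (edgeR adjusted p = 2.64e-05). With such a group they were Pramel5 4.32 (edgeR adjusted p = 0.0448).

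Some of these differences were lost without 1 library. That of Pramef6 for the knockdown in PlaB was -1.46, edgeR adjusted p = 0.148 without Dux KD PlaB replicate 2 and -1.80, edgeR adjusted p = 0.127 without Dux KD RA replicate 1. That of Pramef8 for the deletion in PlaB was -0.98, under the threshold of 1, without SE KO PlaB replicate 1. That of Pramel5 for the deletion in PlaB was lost without SE KO RA replicate 1 (edgeR adjusted p = 0.0615) or 2 (edgeR adjusted p = 0.0709). The differences of Pramel5 for the deletion in Dux OE and of Pramef17 for the knockdown in Zscan4 OE, both close to the threshold, were lost without most single libraries of their groups. For Pramel5 this held for each of the 8 libraries left out in turn, with values of 3.90 to 4.64, and for Pramef17 for 7 of 8, with -1.80 to -0.91. The Dux KD PlaB libraries stood near DMSO for all genes, as described above. Duxf3 kept more counts in Dux KD RA than in Dux KD PlaB. The part of either in the differences was not tested.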

How the results depend on the processing

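No member called in the main fit was reversed in direction under any alternative run in which it was still tested. Directions of members not called were not checked. RLE scaling, scaling by library size alone and DESeq2 moved no count of called members by more than 1.5 times. Of single values, the Dux knockdown effect in Zscan4 OE minus that in RA of Pramef17 lost its call with RLE scaling (-1.58, edgeR adjusted p = 0.0515) and when only the groups compared were fitted (-1.60, edgeR adjusted p = 0.0862), and the deletion effect in Dux OE minus that in RA of Pramel5 with DESeq2 (adjusted p = 0.092) and with no filter (edgeR adjusted p = 0.0774). With no filter on low counts, 2 members were called lower in PlaB and 2 in Dux R70A OE against ESC. When only the groups compared were fitted, 5 members were called higher in RA and 1 in Dux KD Zscan4 OE, and called lower were 0 in Dux R70A OE against ESC, 2 against Dux OE, 1 in SE KO Dux OE and 3 in SE KO RA. Fewer members passed the filter there, with 6 of 9 tested in RA and 6 in SE KO RA. With DMSO as control, Dux R70A OE had 0 called higher and 0 lower. Leaving out 1 library at a time gave 2 to 2 called lower in PlaB, 1 to 2 higher and 1 to 2 lower in Dux R70A OE against ESC, 1 to 2 lower in SE KO Dux OE, 0 to 1 lower in DMSO against ESC, 1 to 2 higher in Dux KD Zscan4 OE, and 0 to 1 lower for the deletion effect in PlaB minus that in RA. A group left with 1 library was assumed to vary like the other groups. At this depth, genes under the floor could not be ordered, and in simulated data weakly expressed changed genes were often missed, most in the differences between inductions.

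Replicate numbers did not pair the samples, since the correlations of same-numbered deviations ran from -0.0473 to 0.0237. With the replicate block no count of called members moved by over 1.5 times, and 1 single value lost its call, Pramel5 for the deletion effect in Dux OE minus that in RA (4.32, edgeR adjusted p = 0.0553).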
